A study of Homo sapiens with 8 samples.

Results

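The sgRNAs described here target histone deacetylases (HDACs), the sirtuin SIRT1 and the DNA methyltransferases (DNMTs), in a pooled CRISPR/Cas9 knockout screen for genes that affect the level of PRMT5 protein. They were taken by gene name alone, as every targeting sgRNA whose gene begins with HDAC, SIRT, DNMT, KDM, EZH, BRD or PRMT and a family number. The names matched 11 HDAC genes, 1 sirtuin and 2 DNMT genes, and 0 genes under each of KDM, EZH, BRD and PRMT. This gave 98 sgRNAs against 14 genes, 7 per gene, of 10429 sgRNAs in the table, which holds 9929 targeting sgRNAs against 1420 genes and 500 control sgRNAs.

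The screen was run in COV362, an established human cell line of high-grade serous ovarian cancer, in a derivative made resistant to platinum by repeated rounds of cisplatin and expressing Cas9. Every cell of both groups therefore carried Cas9, a library sgRNA and the resistant background, and the labels give the genotype as WT. Cells were stained for intracellular PRMT5 and sorted into the population with the least PRMT5 (PRMT5lo, 4 libraries) and that with the most (PRMT5hi, 4 libraries). The 4 replicates were split from the same transduced and selected cells, so their spread covers culture, sorting and PCR but not transduction. The abundance of an sgRNA is given in CPM, its read count scaled to a common library total, as the authors' mean over the 4 libraries of a population, and no value of a single library was used. The recovered depth was 19117396 reads in PRMT5lo and 16166859 reads in PRMT5hi over the 4 libraries of each, and since PCR copies were not told apart by molecular identifiers, depth bears on the counting error alone.

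Acetyl groups on lysines loosen the contact of histone tails with DNA and are read by activating factors, and HDACs take them off. Most class I HDACs are nuclear and act inside corepressor complexes. Class IIa HDACs shuttle between nucleus and cytoplasm and have weak catalytic activity of their own. Class IIb HDACs act mostly on substrates outside chromatin, and HDAC11 forms class IV. SIRT1 removes acetyl groups with NAD+ as a cofactor. DNMT1 copies CpG methylation after replication and DNMT3A places it anew. Both deacetylases and methyltransferases are targets of drugs in clinical use, which places them in a library of druggable genes.

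The change of an sgRNA was expressed as the log2 ratio of CPM + 1, PRMT5lo divided by PRMT5hi, so that an sgRNA with a positive ratio was more frequent among cells with little PRMT5. Which columns belong to which population was inferred, since the study's methods and its legend give the fold change opposite signs. The direction of every ratio below follows the legend. In this direction sgRNAs against *FER*, *BRAF* and *HRAS* were more frequent in PRMT5lo cells, with mean log2 ratios of 0.35, 0.27 and 0.26. The study lists HRAS and BRAF as positive regulators of PRMT5 from this screen and reports less PRMT5 after *FER* depletion, which is the same direction. The ratio was averaged over the 7 sgRNAs of a gene. It is followed by the SD over sgRNAs, which are not biological replicates, and by a standard error (SE) carried over from the authors' variances between libraries, with the sgRNAs of a gene taken as independent. Each sgRNA was tested by the difference of its read fractions over its standard error, and the one-sided p-values of a gene were combined by Fisher's method, in the manner of the CB2 package that the study used. The p-values assume a t distribution with a spread estimated from 4 libraries, because the pooled columns allow no exact test over libraries, and they cover cultures of 1 transduction. A gene was called at a combined one-sided p under 0.01 with a mean log2 ratio beyond 0.25.

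None of the 14 genes was called, as 0 passed in PRMT5lo and 0 in PRMT5hi. Over all 1420 genes 10 (0.704%) were called in PRMT5lo and 12 (0.845%) in PRMT5hi, or 22 in either direction (1.55%). At an unadjusted one-sided p under 0.05 from Fisher's method, 1 of the 14 genes passed in PRMT5lo, *HDAC4*, against 8.59% of all genes. In PRMT5hi 3 passed, *HDAC6*, *HDAC2* and *HDAC10*, against 9.30% of all genes. The smallest p after Benjamini-Hochberg adjustment over all genes was 0.354 for *HDAC4* in PRMT5lo and 0.417 for *HDAC6* in PRMT5hi. With Stouffer's method in place of Fisher's, *HDAC10* was called in PRMT5hi, with a one-sided p of 0.00817, an adjusted p of 0.362, and the other 13 genes were not. Of all 1420 genes, that method called 13 in PRMT5lo and 17 in PRMT5hi. *HDAC4* passed the p limit by that method too, with 0.00687 in PRMT5lo, but its mean stayed under 0.25. Of the 14 means, 6 were above 0 and 8 below, with a median of -0.04, while 48.5% of all genes were above 0 and their median was -0.0033. The control sgRNAs averaged a log2 ratio of 0.019.

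*HDAC3*, a nuclear deacetylase that works inside corepressor complexes, had the lowest mean ratio and the lowest abundance of the 14 genes. The gene occupies chr5:141620881-141636849 (GRCh38). In the order of their numbers from 1 to 7, its sgRNAs stood at 40.4, 16.2, 66.0, 5.68, 0.54, 13.4 and 166 CPM in PRMT5lo cells. In PRMT5hi cells the same sgRNAs stood at 36.1, 23.2, 69.1, 8.88, 1.54, 19.7 and 194 CPM. All but the first were lower in PRMT5lo cells, and within each population the sgRNAs ranged from nearly absent to well represented. The mean log2 ratio was -0.35 (SD 0.31, SE 0.19), a 1.27-fold higher abundance in PRMT5hi cells, which ranked 13 from the lowest among 1420 genes. Its p in PRMT5hi was 0.0793 before adjustment and 0.640 after, and the gene was not called.

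The mean ratio of *HDAC3* was set largely by its scarce sgRNAs, while the single sgRNA that moved its p most was an abundant one. For 4 of the 7, numbers 2, 4, 5 and 6, the mean over both populations was under 20 CPM, and these had a mean ratio of -0.58 with 4 of 4 below 0. The 3 sgRNAs of at least 20 CPM had a mean of -0.04, and the log2 ratio of the summed CPM of all 7 was -0.20. The scarcest, number 5, held an estimated 9.9 reads in PRMT5lo and 24.9 in PRMT5hi over all libraries, and its ratio of -0.72 had an SE of 0.59. None of these 4 passed a one-sided p of 0.05. Their one-sided p-values from the sgRNA test in PRMT5hi were 0.160, 0.248, 0.177 and 0.244, and all 4 entered the combined p. The only *HDAC3* sgRNA that did was number 7, the most abundant, with a ratio of -0.23 (SE 0.10) and a p of 0.0492 in PRMT5hi, and without it the combined p of the gene was 0.194 with a mean of -0.37. Scarce sgRNAs scattered more in the whole table too. Among all targeting sgRNAs the SD of the ratio was 0.38 in the lowest tertile of abundance, 0.26 in the middle and 0.21 in the highest.

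The spread of abundance among the *HDAC3* sgRNAs was wide for this library. Abundance was taken as log2(CPM + 1) averaged over both populations, and its mean over the *HDAC3* sgRNAs was 4.48 (SD 2.12), rank 18 from the lowest of 1420 genes, with the SD ranked 4 from the highest. At least 4 sgRNAs under 20 CPM, the count of *HDAC3* itself, were found for *HDAC3* alone of the 14 genes, and for 13 of 1420 genes in all (0.915%). Of 24 broadly essential genes listed by name, 6 had as many, and the median abundance of that list was 5.15, against 6.39 over all genes. Without a library taken at the start of culture, loss of cells during culture and an uneven sgRNA pool cannot be told apart.

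The other class I genes had means between -0.13 and 0.03. *HDAC1* and *HDAC2* are the paired catalytic subunits of the Sin3, NuRD and CoREST complexes. The *HDAC1* sgRNAs ranged over 90.3 to 234 CPM in PRMT5lo and 81.1 to 249 CPM in PRMT5hi, with an abundance of 7.29 that ranked 4 from the highest of 1420 genes, and a mean ratio of -0.02 (SD 0.20, SE 0.10). Those against *HDAC2* ranged over 29.4 to 209 CPM in PRMT5lo and 44.9 to 194 CPM in PRMT5hi, with a mean ratio of -0.13 (SD 0.30, SE 0.09). *HDAC2* held 3 of the 8 member sgRNAs that passed a one-sided p of 0.05 in PRMT5hi.

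These 3 sgRNAs of *HDAC2* were numbers 1, 5 and 7. Number 1 stood at 119.8 CPM in PRMT5lo and 159.6 CPM in PRMT5hi (ratio -0.41, SE 0.13), number 5 at 29.4 and 44.9 CPM (ratio -0.59, SE 0.25) and number 7 at 96.2 and 112 CPM (ratio -0.22, SE 0.11). The remaining 4 had ratios from -0.10 to 0.21, 3 of them above 0. The combined one-sided p of *HDAC2* in PRMT5hi was 0.0268 with an adjusted p of 0.469, and leaving out any of the 3 brought it above 0.05, up to 0.165 without number 1. The difference between the means of *HDAC2* and *HDAC1* was -0.11 with an SE of 0.13, smaller than its error. *HDAC1* and *HDAC2* are close paralogs, and whether 1 sgRNA could cut both was not checked, as spacer sequences were not analysed here. *HDAC8*, which deacetylates the cohesin subunit SMC3, ranged over 37.0 to 147 CPM in PRMT5lo and 50.6 to 144 CPM in PRMT5hi, with a mean of 0.03 (SD 0.30, SE 0.10).

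Class IIa held the highest mean ratio of the 14 genes. *HDAC4*, a corepressor of MEF2 transcription factors, occupies chr2:239048168-239401649 (GRCh38). Its sgRNAs 1 to 7 stood at 124, 98.3, 167, 86.8, 57.2, 127 and 219 CPM in PRMT5lo cells. In PRMT5hi cells they stood at 133, 81.1, 158, 77.8, 51.1, 88.6 and 190.4 CPM. All but the first were higher in PRMT5lo cells, and none was scarce. The mean ratio was 0.18 (SD 0.19, SE 0.08), a 1.14-fold higher abundance in PRMT5lo cells, which ranked 72 from the highest of 1420 genes. At least 6 sgRNAs above 0, the count of *HDAC4* itself, were found for 6.97% of all genes.

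The one-sided p of *HDAC4* in PRMT5lo was 0.0144 by Fisher's method, with an adjusted p of 0.354. It rested most on sgRNA 6, with a ratio of 0.52 (SE 0.17), and sgRNA 2, with 0.27 (SE 0.14), the only ones of the gene past a one-sided p of 0.05. Without sgRNA 6 the mean was 0.13 and the combined p 0.101, and without sgRNA 1 they were 0.23 and 0.00776. The mean stayed under 0.25 whichever sgRNA was left out.

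*HDAC5*, another MEF2 corepressor, had sgRNAs 1 to 7 at 158, 82.3, 69.7, 142, 80.5, 85.2 and 146 CPM in PRMT5lo cells and at 141, 94.4, 77.5, 129, 73.0, 57.3 and 152 CPM in PRMT5hi cells. They divided 4 above 0 and 3 below, and the mean of 0.09 (SD 0.26, SE 0.08) came largely from sgRNA 6, with a ratio of 0.56 (SE 0.15), a one-sided p of 0.00611 and an adjusted two-sided p of 0.494 over all sgRNAs. Without it the mean was 0.0072. *HDAC7* and *HDAC9*, of the same class, had means of -0.06 (SD 0.17, SE 0.09) and -0.06 (SD 0.22, SE 0.08). The *HDAC7* sgRNAs ranged over 25.1 to 123 CPM in PRMT5lo and 20.9 to 142 CPM in PRMT5hi, and those against *HDAC9* over 41.8 to 207 CPM in PRMT5lo and 51.5 to 228 CPM in PRMT5hi. *HDAC4* exceeded *HDAC9* by 0.25 (SE 0.11) and *HDAC5* by 0.10 (SE 0.11), and *HDAC4* and *HDAC5* thus differed by less than the error.

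sgRNA 4 of *HDAC9* had the smallest p of all 98. It stood at 169 CPM in PRMT5lo and 207 CPM in PRMT5hi, with a ratio of -0.30 (SE 0.07) a one-sided p of 0.00347 and an adjusted two-sided p of 0.367 over all sgRNAs. The other 6 sgRNAs of the gene had ratios from -0.29 to 0.30, and without number 4 its mean was -0.03.

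Both class IIb genes had means below 0. *HDAC10*, a polyamine deacetylase of the cytoplasm, occupies chr22:50245183-50251265 (GRCh38). Its sgRNAs 1 to 7 stood at 9.37, 113, 91.0, 161, 133, 90.7 and 141 CPM in PRMT5lo cells. In PRMT5hi cells they stood at 15.5, 143, 100.5, 199, 145, 90.0 and 180.1 CPM. Number 6 was level and the other 6 were lower in PRMT5lo cells. The mean ratio was -0.27 (SD 0.22, SE 0.11), a 1.21-fold higher abundance in PRMT5hi cells, rank 29 from the lowest of 1420 genes. At least 6 sgRNAs below 0, the count of each of these 2 genes, were found for *HDAC10* and *HDAC3* of the 14 genes and for 6.48% of all genes.

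*HDAC10* and *HDAC3* were the only 2 of the 14 genes with a mean beyond 0.25 in either direction, against 2.04% of all genes above 0.25 and 2.54% below -0.25. In *HDAC10* the abundant sgRNAs leaned the same way, though by less. The 6 sgRNAs of at least 20 CPM had a mean ratio of -0.21, with 5 below 0, and the log2 ratio of the summed CPM was -0.24. The mean was -0.246 with CPM + 5 and -0.22 with CPM + 10. None of these values passed 0.25. The mean of the gene, and with it the call by Stouffer's method, thus passed that limit only with the scarce number 1 included. The one-sided p by Fisher's method was 0.0284 in PRMT5hi, with an adjusted p of 0.469. Its only sgRNA past a one-sided p of 0.05 was number 7, and without it the combined p was 0.103 with a mean of -0.26.

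*HDAC6*, which deacetylates tubulin and HSP90 in the cytoplasm, occupies chrX:48801398-48824982 (GRCh38). Its sgRNAs 1 to 7 stood at 81.6, 21.3, 56.1, 120.3, 57.1, 54.2 and 54.2 CPM in PRMT5lo cells. In PRMT5hi cells they stood at 80.6, 19.3, 74.6, 150.4, 73.5, 46.9 and 78.8 CPM. Numbers 3, 4, 5 and 7 were lower in PRMT5lo cells, with ratios from -0.53 to -0.32, and numbers 1, 2 and 6 were slightly higher, with ratios from 0.02 to 0.20. The mean was -0.18 (SD 0.29, SE 0.08), rank 94 from the lowest of 1420 genes. The one-sided p of 0.0183 in PRMT5hi was the smallest of the 14 genes in that direction, with an adjusted p of 0.417, and it ranged from 0.00844 without sgRNA 6 to 0.0769 without sgRNA 7. The means of *HDAC10* and *HDAC6* differed by -0.09 (SE 0.14), less than the error.

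*HDAC11*, the class IV enzyme, which removes long-chain acyl groups from lysines, had the second highest mean. Its sgRNAs 1 to 7 stood at 64.7, 135, 125, 9.13, 47.0, 49.2 and 178 CPM in PRMT5lo cells. In PRMT5hi cells they stood at 71.8, 98.7, 124, 9.52, 41.1, 39.6 and 176 CPM. Numbers 3, 4 and 7 were level between the populations, and the largest ratio, 0.44 (SE 0.16) with a one-sided p of 0.0145, belonged to number 2. The mean was 0.11 (SD 0.21, SE 0.10), and the one-sided p of 0.110 in PRMT5lo did not pass. Without number 2 the mean was 0.05 and the one-sided p by Fisher's method 0.429, and the median over the 7 was 0.013. The abundance of number 4 set it apart from the others of the gene, and the SD of abundance over the 7 was 1.37, rank 63 from the highest.

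*SIRT1*, which deacetylates p53 among other proteins, ranged over 42.6 to 132 CPM in PRMT5lo and 39.1 to 161 CPM in PRMT5hi. Its ratios ran from -0.60 to 0.44, 2 above 0 and 5 below, with a mean of -0.09 (SD 0.34, SE 0.10) and one-sided p-values of 0.688 in PRMT5lo and 0.240 in PRMT5hi. No sgRNA of *SIRT1* passed a one-sided p of 0.05.

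*DNMT1* had the second lowest abundance of the 14 genes and the widest disagreement among sgRNAs. The gene occupies chr19:10133346-10194953 (GRCh38). Its sgRNAs 1 to 7 stood at 23.5, 96.3, 103, 39.5, 15.8, 62.6 and 83.0 CPM in PRMT5lo cells. In PRMT5hi cells they stood at 15.1, 105, 67.9, 36.7, 22.0, 84.5 and 74.0 CPM. The ratios divided 4 above 0 and 3 below, from -0.45 to 0.61, and both ends belonged to the scarcest sgRNAs, numbers 5 and 1. More abundant sgRNAs came close to both ends, number 6 with a ratio of -0.43 and number 3 with 0.59. The mean was 0.07 (SD 0.43, SE 0.12), and the SD ranked 89 from the highest of 1420 genes. The abundance of 5.64 ranked 114 from the lowest, 0.81 below that of *DNMT3A*, a 1.76-fold difference. *DNMT3A* ranged over 54.9 to 178 CPM in PRMT5lo and 47.6 to 173 CPM in PRMT5hi, with 5 of 7 sgRNAs above 0 and a mean of 0.08 (SD 0.35, SE 0.09). The means of *DNMT1* and *DNMT3A* differed by -0.02 (SE 0.15).

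Set side by side by class, the mean over genes was -0.12 (SE 0.06) for class I, 0.04 (SE 0.04) for class IIa, -0.23 (SE 0.07) for class IIb, 0.11 (SE 0.10) for class IV, -0.09 (SE 0.10) for *SIRT1* and 0.07 (SE 0.07) for the DNMTs. The sgRNAs above 0 numbered 10 of 28 in class I, 14 of 28 in class IIa, 4 of 14 in class IIb, 5 of 7 in class IV, 2 of 7 for *SIRT1* and 9 of 14 for the DNMTs, against 49.8% of all targeting sgRNAs. Class IIb lay below class IIa by -0.26 (SE 0.08) and below class I by -0.11 (SE 0.10), and class I lay below class IIa by -0.15 (SE 0.08). These differences are a description of classes of 1 to 4 genes and were given no test. Their SEs come from the variances between libraries and leave out the spread between genes. The SD over genes was 0.17 in class I, 0.12 in class IIa and 0.07 in class IIb. The class I mean was set by *HDAC3*, without which it was -0.04, while class IIb was below 0 with either of its genes alone.

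Abundance differed between the classes more by gene than by class. The mean abundance was 6.21 in class I, 6.63 in class IIa, 6.24 in class IIb, 5.97 in class IV, 6.30 for *SIRT1* and 6.05 for the DNMTs, beside a mean of 6.31 and a median of 6.39 over all genes. In CPM the class IIa sgRNAs averaged 114 in PRMT5lo and 112 in PRMT5hi, and the DNMT sgRNAs 79.9 in PRMT5lo and 75.9 in PRMT5hi. Class I held both ends of the range, *HDAC3* at 4.48 and *HDAC1* at 7.29, a difference of -2.81, and without *HDAC3* its mean was 6.79, above that of every other class. Of the 98 sgRNAs, 8 stood under 20 CPM (8.16%), 4 of them against *HDAC3*, 2 against *DNMT1* and 1 each against *HDAC10* and *HDAC11*, against 3.38% of all targeting sgRNAs and 0.60% of control sgRNAs.

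Of single sgRNAs among the 98, 6 (6.12%) passed a one-sided p of 0.05 in PRMT5lo and 8 (8.16%) in PRMT5hi, beside 562 (5.66%) and 596 (6.0%) of all targeting sgRNAs. The control sgRNAs, which target no gene, passed at 9.0% in PRMT5lo and 6.60% in PRMT5hi. In PRMT5lo they were sgRNAs 2 and 6 of *HDAC4* and 1 each of *HDAC5*, *HDAC11*, *DNMT1* and *DNMT3A*. In PRMT5hi they were the 3 of *HDAC2*, 2 of *HDAC6* and 1 each of *HDAC3*, *HDAC9* and *HDAC10*. For 4 of these 14 sgRNAs the variance in 1 population was at the smallest value the authors' method allows, that of read counting alone. These were number 7 of *HDAC10* in PRMT5lo, and number 7 of *HDAC6*, number 7 of *HDAC3* and number 3 of *DNMT1* in PRMT5hi. No gene of the 14 had sgRNAs past this limit in both directions, which 9.37% of all genes had. After adjustment over all sgRNAs 0 of the 98 passed a two-sided p of 0.05, as did 5 of 10429 in the table (0.0479%). The SE of a single ratio ran from 0.04 to 0.82 with a median of 0.23, and that of a gene mean from 0.08 to 0.19, so means within about 0.1 of 0 were mostly no larger than the error.

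Across the 98 sgRNAs the ratio and the abundance correlated with a Pearson r of 0.23 and a Spearman rho of 0.07, a description over sgRNAs that share libraries and, in sets of 7, a target. Over all 9929 targeting sgRNAs both were 0.02. Both extremes of the ratio belonged to sgRNAs under 20 CPM, number 5 of *HDAC3* at -0.72 and number 1 of *DNMT1* at 0.61.

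Of the other chromatin proteins in the library, 7 outside these families are described here, and none of them was called in either direction. None reached an unadjusted one-sided p of 0.05 by Fisher's method, the smallest being 0.0683 in PRMT5lo for *HIST1H1E*, a linker histone, and 0.155 in PRMT5hi for *HIST1H1C*, another linker histone. *HIST1H1E* had a mean of -0.15 (SD 0.34) although its smaller p was in PRMT5lo, where 2 of its sgRNAs passed a one-sided p of 0.05. *KMT2A*, a histone H3 lysine methyltransferase, had a mean of 0.05 with an SD of 0.61 over its sgRNAs and a largest ratio of 1.17. Of its 7 sgRNAs 2 stood under 20 CPM, with a minimum of 0.39 CPM in PRMT5hi, and its abundance of 5.24 ranked 57 from the lowest of 1420 genes. The means of *L3MBTL1*, a reader of methylated histones, and the linker histones *H1F0*, *HIST1H1A*, *HIST1H1B* and *HIST1H1C* lay between -0.04 and 0.05.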

How the data were processed

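The sgRNA cassette was amplified from genomic DNA of sorted cells and sequenced from one end. Per the study's methods, the authors assigned reads to library sgRNAs and summarised each population with CB2. The deposited CPM values are the authors' means over 4 libraries, and the deposited fractions, each with a variance over libraries, are their estimates of an sgRNA's share of reads. FastQC and hg38 are named in the submitters' processing notes, and the mapper and all versions were not given in the sources used. The table's suffixes were read as PRMT5hi for "a" and PRMT5lo for "b", since the p-value of "a" is the one the study plots for PRMT5hi. The methods and the figure legend give the log2 fold change opposite signs, so this direction was inferred. It is the one in which *FER*, *BRAF* and *HRAS* leaned to PRMT5lo, the side on which the study places them. Columns of fold changes, test scores, p-values and adjusted p-values, and the table per gene, hold the authors' own comparisons and were not used.

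From fractions and variances the difference PRMT5lo minus PRMT5hi over its standard error was referred to a t distribution with Welch-type degrees of freedom, combined per gene by Fisher's method and adjusted by Benjamini-Hochberg over 1420 genes or 10429 sgRNAs (Python 3.11.15, scipy 1.17.1, pandas 2.3.3). A pseudocount of 1 CPM was used, no low values were filtered, and all 14 genes were named, with all sgRNAs given for the 3 highest and 3 lowest means and the 3 lowest abundances. sgRNAs past p 0.05, and those that carried a gene's value, were named after their values were seen. The cutoffs of 4 sgRNAs under 20 CPM and of 6 sgRNAs on 1 side of 0 equal the counts of the genes described with them. Depth was recovered from the smallest variance the method allows, reached by 14 of the 98 sgRNAs in PRMT5lo and 13 in PRMT5hi. The members, classes and lists were chosen with earlier results of these data known. Coordinates are RefSeq's for GRCh38.p14, in which all 14 symbols matched. Spacer sequences were not analysed. 1 gene of the list of other chromatin proteins is not reported here. Alternatives were Stouffer's method, a p limit of 0.001, a normal in place of the t distribution, pseudocounts of 5 and 10, a minimum of 20 CPM, binned variances, centring on the control median, medians, summed CPM, 1 population for abundance, and sgRNAs or genes left out. Summed CPM, the mean variance of bins and leaving out genes of a class were added after seeing the data.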

Additional observations from a re-analysis of the deposited data

How the results depend on the processing

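The counts of called genes stayed at 0 in both directions under every alternative tried except Stouffer's method, which called 1 gene in PRMT5hi, *HDAC10*. Over all genes the same alternatives gave 2 to 13 calls in PRMT5lo and 5 to 17 in PRMT5hi, against 10 and 12. With a normal in place of the t distribution, 8 member sgRNAs passed a one-sided p of 0.05 in PRMT5lo and 11 in PRMT5hi. The main counts were 6 and 8. The shares of all targeting sgRNAs were then 8.95% and 9.52%. The count in PRMT5hi was 7 with the median variance of 20 abundance bins. It was 2 with the mean variance of these bins, chosen after seeing the data, and the share of all targeting sgRNAs fell to 3.14%. What in the replaced variances lowered the count was not tested. With the median over sgRNAs in place of the mean over genes, the class ratio was -0.31 for class IIb and 0.13 for the DNMTs. Both moved beyond the SD between their genes. The median moved other classes toward 0, class I from -0.12 to -0.05 and class IV from 0.11 to 0.013, and class IIa changed sign, from 0.04 to -0.006. The mean of *HDAC3* was -0.23 with CPM + 5, -0.18 with CPM + 10 and -0.04 with only sgRNAs of at least 20 CPM. With each sgRNA left out in turn, 3 means changed sign. They ran from -0.024 to 0.15 for *DNMT1*, -0.087 to 0.020 for *HDAC1* and -0.039 to 0.11 for *HDAC8*, and the other 11 kept their sign. No paired analysis was possible because the columns are pooled over the 4 libraries of a population and carry no replicate numbers, and for the same reason no library could be left out. Depth limits number 5 of *HDAC3*, the scarcest of the 98 sgRNAs, with an estimated 9.9 reads in PRMT5lo and 24.9 in PRMT5hi.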
